A study of Mus musculus with 4 samples.

Results

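Genes of the antioxidant response and the metallothioneins were followed in peritoneal macrophages with and without Setdb1, under vehicle and under lipid A. The list held 10 genes, Hmox1, Nqo1, Gclm, Gclc, Txnrd1, Slc7a11, Srxn1, Mt1, Mt2 and Prdx1, and every probe set whose only gene symbol in the platform annotation is one of them was taken. This gave 18 probe sets of 9 genes, out of 18193 genes with such a probe set on the array. All 5 probe sets of Prdx1, a peroxiredoxin that removes hydrogen peroxide, carry a second gene symbol, so Prdx1 has no value here.

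Macrophages elicited with thioglycollate, an irritant that draws monocyte-derived cells into the peritoneal cavity, came from WT mice (+/+:Setdb1 fl/fl) and KO mice (LysM Cre/+:Setdb1 fl/fl) on the C57BL6/J strain. Both genotypes carried the floxed alleles, and the Cre driver, the lysozyme gene, is active in macrophages and also in neutrophils. Cells received vehicle or lipid A, the active part of LPS and a ligand of TLR4, for 4 h, and each of the 4 conditions was measured on 1 Affymetrix mouse genome array. The lipid A concentration is 10 ng/ml in the description of the series and 10 µg/ml in that of the samples. The age of the mice, and whether cells of several mice were pooled, are not given in the sources used here. With 1 array a condition, no difference has a replicate check, and values are descriptions of these 4 arrays without a p-value. In such bulk RNA, fewer cells of a type and less RNA per cell cannot be told apart.

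Nrf2, encoded by Nfe2l2, is a transcription factor that Keap1 holds in the cytoplasm and marks for degradation until oxidants or electrophiles modify Keap1. Freed Nrf2 pairs with small Maf proteins on antioxidant response elements and drives genes for glutathione synthesis, quinone reduction, thioredoxin recycling and heme breakdown, while Bach1 occupies the same elements as a repressor. Metallothioneins are small cysteine-rich proteins that bind zinc and copper and are induced by the zinc sensor Mtf1 through metal response elements. In macrophages, both groups respond to inflammatory and oxidative stress.

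The deposited values are linear signals, and the median over the probe sets other than controls was 65.1 with vehicle and 74.8 with lipid A in WT, and 84.2 and 75.8 in KO. Signals under the median of their own array are called background here. Centring the arrays on these medians takes 0.37 off a log2 difference of KO over WT under vehicle and 0.20 off that of lipid A over vehicle in WT, and it adds 0.15 in KO. Setdb1 itself gave 589 and 521 in WT vehicle and WT lipid A, and 346 and 386 in KO vehicle and KO lipid A, from a probe set whose place relative to the deleted exons is not known here, so it does not check the labels. All 8 macrophage markers reached the median on every array, with summed signals of 186949 and 205812 in WT and 159993 and 177903 in KO, under vehicle and lipid A. The 6 measured B cell markers summed to 557 and 403 in WT and 5379 and 5619 in KO, with 3 and 2 of them at or above the median in WT, and 5 and 5 in KO. The 6 markers of resident large peritoneal macrophages summed to 557 and 589 in WT and 3262 and 3143 in KO. Of the latter, Timd4 was below the median on all 4 arrays. The 6 measured neutrophil markers summed to 1931 and 1949.9 in WT and 921 and 916 in KO. Of these, S100a8 gave 1727, 1721, 569 and 676 in the same order, so it made up most of each sum, and S100a9 was background on every array. In both genotypes 3 of the 6 reached the median with vehicle and 2 with lipid A. Under vehicle 4 of the 6 were higher in KO and 2 lower, with Elane called higher and S100a8 and Camp lower. Under lipid A 2 were higher in KO and 4 lower. The 8 markers of mesothelium and fibroblasts summed to 1580.2 and 1375 in WT and 906 and 706 in KO, with Upk3b, Wt1 and Krt19 background on every array. Dcn, Col1a2 and Col3a1 were lower in KO under both treatments. Msln, a mesothelial marker, ran the other way, with 6.70 and 45.2, both background, in WT and 119 and 83.3 in KO. In each comparison of genotypes 3 of the 8 were higher in KO and 5 lower. The 6 measured markers of T and NK cells summed to 172 and 321 in WT and 530.4 and 650 in KO, with Ncr1 background on every array. Only 0 and 1 of these 6 reached the median in WT, and 2 and 5 in KO, so the sums are partly background. The part of these cells in the differences described here was not tested. The 4 measured red blood cell markers summed to between 157 and 187, with Alas2 and Slc4a1 below the median on every array. Ratios of 3' to 5' signal were 2.00 with vehicle and 2.09 with lipid A in WT, and 2.19 and 1.79 in KO, for actin. For Gapdh they were 0.945, 1.07, 1.35 and 1.06 in the same order. KO vehicle thus had the highest ratio for both, and the part of RNA quality in its differences from the other arrays was not tested.

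Without stimulation, KO macrophages held less Slc7a11 and Nqo1 and more Mt2 than WT macrophages, and under lipid A they held more Mt1 and Mt2 and less Nqo1 and Gclm. Each gene was read from its brightest probe set, and a gene was called when it differed over 2-fold and its higher signal reached the array median, which all 9 genes did on all 4 arrays. In KO over WT under vehicle, 1 gene was called higher and 2 lower, where 11.1% of all genes detected in this comparison were higher and 6.17% lower. Among genes at or above the median on both arrays, as these 9 were, the shares were 3.48% and 2.08%. In KO over WT under lipid A, 2 were called higher and 2 lower, against 10.6% and 10.3% of the detected genes, or 3.60% and 3.77% of those at or above the median on both arrays. Lipid A over vehicle gave 1 gene called higher and 0 lower in WT, against 11.8% and 8.94% (5.28% and 3.88% with both arrays at or above the median), and 3 called higher and 0 lower in KO, against 11.2% and 16.0% (5.82% and 10.0%).

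By the brightest probe sets, the median log2 difference over the 9 genes was 0.018 in KO over WT under vehicle and -0.082 under lipid A. Over all genes it was 0.13 and -0.0050. The vehicle median of the 9 genes depended on the processing. It was 0.072 with quantile normalization, -0.35 with centred arrays, -0.36 with the median over probe sets and -0.31 without probe sets ending in _x_at or _s_at. The genes behind these medians went both ways. The 7 Nrf2 targets had medians of -0.57 under vehicle and -0.30 under lipid A, with 4 and 5 of them below 0, and both metallothioneins were above 0 under both treatments. For lipid A over vehicle the 9 genes had a median of 0.25 in WT and 0.34 in KO, beside -0.047 and -0.19 over all genes. Where a gene had several probe sets, their log2 differences scattered with a pooled SD between 0.39 and 0.46 in these 4 comparisons. This spread between probe sets on the same arrays leaves out differences between mice and errors shared by a whole array. It can also hold differences between transcripts of a gene.

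**Figure D1:**
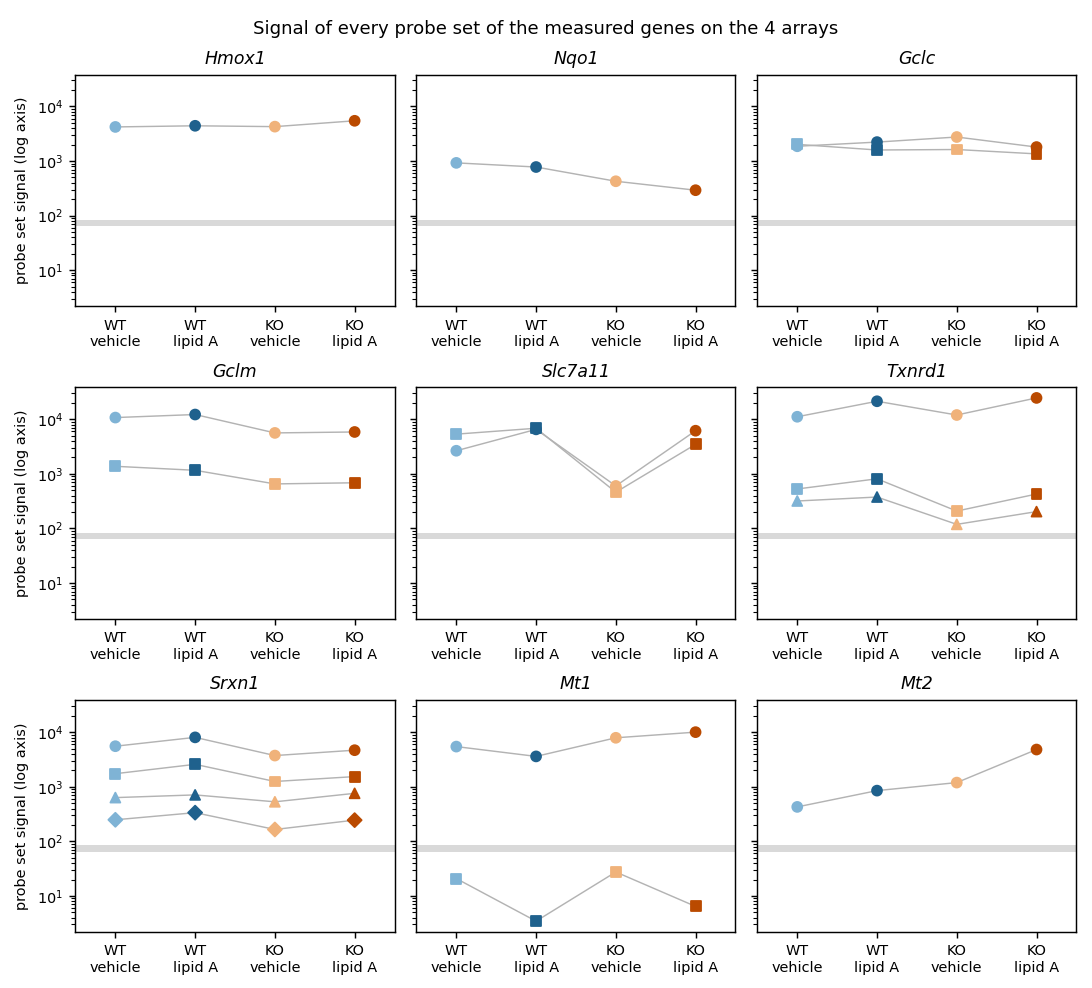
Signal of every probe set of the 9 measured genes (y, log axis) on the 4 arrays (x), with 1 line for each probe set, the circle standing for the brightest. The grey band spans the array medians from 65.1 to 84.2, and Slc7a11 drops to 602 and 462 in KO vehicle while Mt2 is highest, at 4815, in KO lipid A.

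Slc7a11, the transporter subunit of system xc- that brings in cystine for glutathione synthesis, had the largest difference between the genotypes under vehicle and the largest response to lipid A in KO of the 9 genes. Its brightest probe set gave 2658 with vehicle and 6554 with lipid A in WT, and 602 and 6191 in KO. The other gave 5357, 6869, 462 and 3482 in the same order. KO vehicle was thus the low array by both probe sets, and the other 3 arrays lay well above it. KO was 4.41-fold lower than WT under vehicle by the first probe set and 11.6-fold lower by the second. The response to lipid A was 10.3-fold and 7.53-fold in KO, and 2.47-fold and 1.28-fold in WT. Under lipid A the genotypes differed by 1.06-fold by the first probe set and by 1.97-fold, KO being lower, by the second.

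The promoter of Slc7a11 is shown because the gene has a further known regulator, Atf4, the transcription factor of the amino acid stress response. RefSeq promoter windows (GRCm38.p6, 250 bases before to 50 bases after the start of the gene) were matched by symbol for 8 of the 10 listed genes, the others being Hmox1 and Gclc. Each window was searched on both strands for the core of the antioxidant response element, TGACNNNGC, for the metal response element in the forms TGCACNC and TGCGCNC, for the AP-1 site TGAGTCA and for TGATGNAA, a form of the Atf4 amino acid response element. The Slc7a11 window holds 2 matches to TGATGNAA, which begin at -66 and -47 on opposite strands and are set in capitals in the 250 bases before the start (chr3:50443614-50443863, minus strand).
Slc7a11: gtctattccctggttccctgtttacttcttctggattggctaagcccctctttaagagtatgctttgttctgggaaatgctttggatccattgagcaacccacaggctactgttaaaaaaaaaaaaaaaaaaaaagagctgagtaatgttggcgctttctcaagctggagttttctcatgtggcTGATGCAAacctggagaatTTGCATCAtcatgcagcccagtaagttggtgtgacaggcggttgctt
Of 32851 such windows, 3.97% hold this motif, and the antioxidant core, with 12.4% of all windows, is not among the letters of this one. A match of letters is a description and not a binding site.

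Among Atf4 and its stress targets, all 12 listed genes were measured, with 12 detected in WT and 11 in KO for lipid A over vehicle. This comparison gave 4 called higher and 0 lower in WT, where 11.8% of all detected genes were higher and 8.94% lower. It gave 4 called higher and 0 lower in KO, where the shares were 11.2% and 16.0%. Median log2 differences over the detected members were 0.70 in WT and 0.71 in KO, beside -0.047 and -0.19 over all genes. Chac1, which degrades glutathione, was 2.44-fold higher in WT and 4.41-fold in KO, and Slc7a5, a transporter of large neutral amino acids, 3.71-fold and 4.19-fold. KO over WT under vehicle gave 1 called higher, Ddit4, and 1 lower, Vldlr, with 74.8 in WT vehicle and background in KO vehicle. Over all detected genes 11.1% were higher and 6.17% lower in this comparison. Atf4 itself gave 9089 in WT vehicle and 9799 in KO vehicle by its brightest probe set, and 8284 and 4897 by another, so its probe sets disagreed on the direction under vehicle. Slc3a2, the heavy chain that pairs with Slc7a11, gave 8959 with vehicle and 17425 with lipid A in WT, and 12411 and 21768 in KO, and was not low in KO vehicle.

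Glutamate-cysteine ligase makes the first step of glutathione synthesis from a catalytic subunit, Gclc, and a modifier subunit, Gclm, and here the subunits differed between the genotypes in different ways. Gclm gave 10779.6 with vehicle and 12257 with lipid A in WT, and 5642 and 5869.98 in KO by its brightest probe set. A further probe set gave 1379.6, 1165, 656 and 688. Both WT arrays were above both KO arrays by each probe set, and lipid A over vehicle stayed within 1.18-fold in either genotype. KO was 1.91-fold lower under vehicle and 2.09-fold lower under lipid A by the first, and 2.10-fold and 1.69-fold lower by the second. Thus the call over 2-fold depended on the probe set, whereas the direction was the same by both, and by the brightest under every scaling run.

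Gclc gave 1867 with vehicle and 2226 with lipid A in WT, and 2757 and 1805 in KO by its brightest probe set, and 2023, 1595, 1627 and 1354 by the other. The genotypes overlapped, and no difference reached 2-fold. Under vehicle the first probe set was 1.48-fold higher in KO and the second 1.24-fold lower, so the direction for Gclc under vehicle is not settled. Of the other genes of glutathione synthesis and use, 13 of 14 were measured and 12 detected. Under vehicle 0 were called higher in KO and 2 lower, where 11.1% of all detected genes were higher and 6.17% lower. Under lipid A 0 were called higher and 1 lower, against 10.6% and 10.3%. The medians of the 12 genes were -0.53 and -0.41. Gss, which completes glutathione synthesis, was 2.21-fold lower in KO vehicle (638 against 289), with -0.40 on the log2 scale from a further probe set. Gstm1, a glutathione transferase, gave 16674 with vehicle and 14015.5 with lipid A in WT, and 10539 and 6464 in KO.

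The Gclm window is shown because it holds 1 antioxidant core and 3 metal response elements and because both probe sets of Gclm were lower in KO under both treatments. The antioxidant core begins at -134 on the reverse strand and overlaps the metal response element that begins at -138, so that they form a single run of capitals, and a further metal response element begins at -72 (chr3:122245307-122245556, plus strand).
Gclm: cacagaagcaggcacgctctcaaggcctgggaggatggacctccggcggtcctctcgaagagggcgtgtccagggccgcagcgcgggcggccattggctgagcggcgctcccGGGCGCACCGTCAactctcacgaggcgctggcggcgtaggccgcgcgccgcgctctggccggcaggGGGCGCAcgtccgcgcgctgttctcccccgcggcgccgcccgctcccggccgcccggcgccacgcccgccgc
The remaining metal response element of Gclm begins at 28, after the start and outside the bases shown, and all have the form TGCGCNC. At least 3 metal response elements of either form are in 1.97% of all windows, whatever their base content. Because the Gclm window was shown for its matches, this share is a description. The window of Srxn1 holds an antioxidant core at 29 after the start, 1 metal response element and 2 AP-1 sites, that of Prdx1 1 antioxidant core and 2 AP-1 sites, 1 of which overlaps the core, and 1 of the 3 windows of Txnrd1 an antioxidant core, while the window of Nqo1 holds none of the motifs searched.

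**Figure D2:**
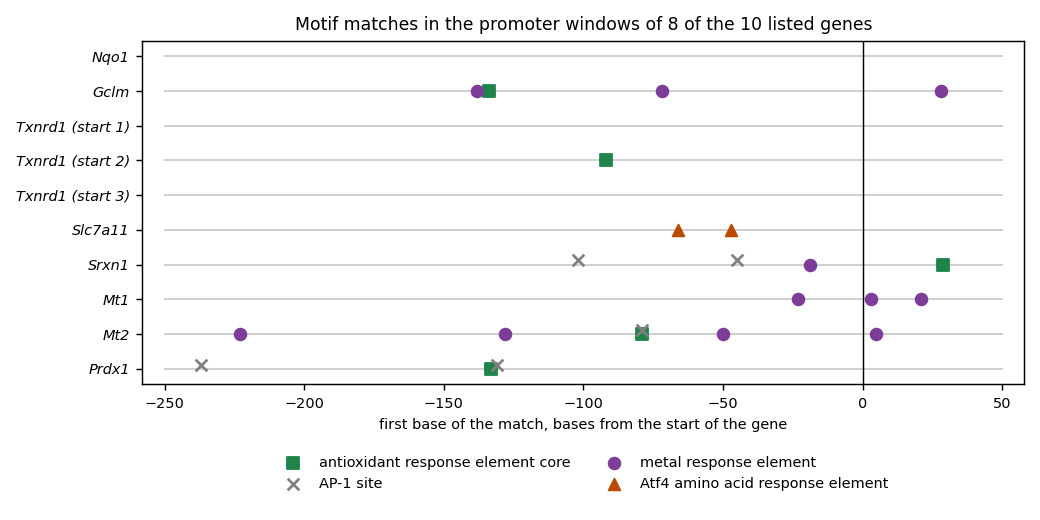
Matches to the motifs in the promoter windows of 8 listed genes, with the leftmost base of each match in bases from the start of the gene (x) and 1 row for each start site (y). Mt2 holds 4 metal response elements and 1 antioxidant core overlapping an AP-1 site, and Slc7a11 holds 2 Atf4 amino acid response elements.

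Nqo1, a quinone reductase much used as a readout of Nrf2, gave 926 with vehicle and 778 with lipid A in WT, and 426 and 292 in KO from its only probe set. Both KO arrays were below both WT arrays. The difference was 2.17-fold under vehicle and 2.66-fold under lipid A, and it passed 2-fold under every scaling run. Lipid A over vehicle was 1.19-fold lower in WT and 1.46-fold lower in KO.

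Srxn1, sulfiredoxin, which repairs overoxidised peroxiredoxins, gave 5542 with vehicle and 8046 with lipid A in WT, and 3734 and 4684 in KO by its brightest probe set. KO was 1.48-fold lower under vehicle and 1.72-fold lower under lipid A, short of 2-fold. All 4 probe sets of Srxn1 were lower in KO under vehicle, with log2 differences from -0.59 to -0.26, and 3 of the 4 under lipid A, the exception being 1.07-fold higher. Lipid A over vehicle was higher by all 4 in both genotypes, by 1.12-fold to 1.48-fold in WT and by 1.23-fold to 1.48-fold in KO.

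Txnrd1, the cytosolic thioredoxin reductase, was higher with lipid A in both genotypes by all 3 probe sets. Its brightest probe set gave 11157 with vehicle and 21453 with lipid A in WT, and 12009.6 and 24699.8 in KO, a lipid A response of 1.92-fold in WT and 2.06-fold in KO. By this probe set the arrays thus paired by treatment and not by genotype. The call over 2-fold in KO was lost with quantile normalization, where the log2 response was 0.84. The dimmer probe sets gave 1.54-fold and 1.18-fold in WT, and 2.05-fold and 1.71-fold in KO. The 2 dimmer probe sets gave 529.96 and 319 in WT vehicle against 209 and 119 in KO vehicle, or 2.54-fold and 2.68-fold lower in KO, and 1.90-fold and 1.85-fold lower under lipid A. The brightest probe set showed KO 1.08-fold and 1.15-fold higher, so the probe sets of Txnrd1 disagreed on the genotype difference, and with arrays centred on their medians the brightest gave -0.26 on the log2 scale under vehicle. Txnrd1 has 3 start sites in the RefSeq windows, and which transcripts each probe set reads is not known here.

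Hmox1, heme oxygenase-1, which breaks heme down to biliverdin, carbon monoxide and iron, varied least. It gave 4219 with vehicle and 4429 with lipid A in WT, and 4273 and 5467 in KO. The whole range was 0.37 on the log2 scale, below the spread of 0.39 to 0.46 between probe sets of a gene. KO over WT was 0.018 under vehicle, which turned to -0.35 with arrays centred on their medians, and 0.30 under lipid A.

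**Figure D3:**
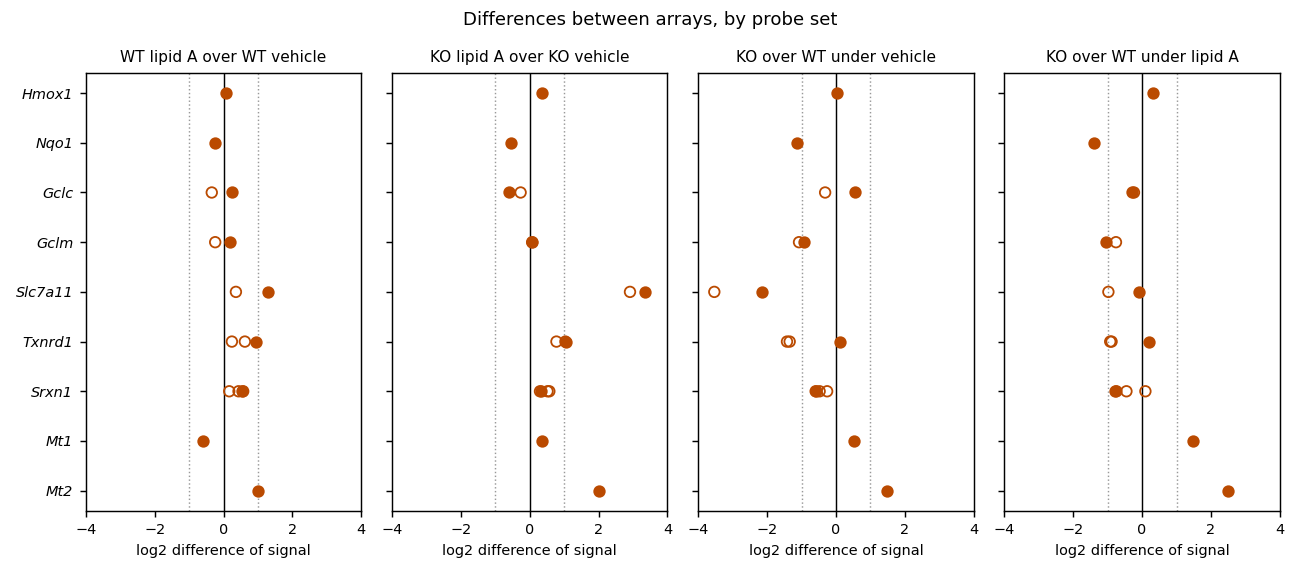
Log2 difference of signal (x) for each gene (y) in the 4 comparisons, with 1 point for each probe set at or above the median on all arrays, filled for the brightest, and dotted lines at 2-fold. Slc7a11 lies far to the left in KO over WT under vehicle and far to the right in KO lipid A over KO vehicle, and Mt1 and Mt2 lie right of 0 in both comparisons of genotypes.

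Mt1 and Mt2 were higher in KO than in WT, most of all under lipid A. Mt2 gave 428 with vehicle and 850.4 with lipid A in WT, and 1194 and 4815 in KO from its only probe set. All 4 arrays stood apart, with both KO arrays above both WT arrays. KO was 2.79-fold higher under vehicle and 5.66-fold higher under lipid A, and lipid A over vehicle was 1.99-fold in WT and 4.03-fold in KO.

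Mt1 gave 5452 with vehicle and 3604 with lipid A in WT, and 7904.5 and 10029.3 in KO from its brightest probe set, whose suffix _s_at marks probes shared by several transcripts. Both KO arrays were again above both WT arrays. KO was 1.45-fold higher under vehicle and 2.78-fold higher under lipid A. On the log2 scale the vehicle difference was 0.54. With arrays centred on their medians it was 0.17, below the spread of 0.42 between probe sets in that comparison. Lipid A over vehicle was 1.51-fold lower in WT and 1.27-fold higher in KO. A further probe set of Mt1 was background on every array, between 3.45 and 27.5, and carries no fold. Mt3, a metallothionein best known from the brain and placed with the genes of metal handling, gave 117 with vehicle and 206 with lipid A in WT, and 77.6, which is background, and 340.1 in KO. Its response to lipid A in KO was 4.38-fold, and KO over WT under vehicle was -0.59 on the log2 scale, the other direction from Mt1 and Mt2. Both values rest on the background signal in KO vehicle. Under lipid A KO over WT was 0.72, the same direction as Mt1 and Mt2.

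Mt2 and Mt1 lie next to each other in the RefSeq gene order with 0 genes between them, on chromosome 8. Their promoters are shown because both genes were higher in KO and because Mtf1 is known to act on them through metal response elements, which are in capitals together with the antioxidant core of Mt2. The Mt2 window holds 4 metal response elements, of which 3 begin before the start, at -223, -128 and -50, and 1 antioxidant core at -79 (chr8:94172368-94172617, plus strand). The Mt1 window holds 3, of which 1 begins before the start, at -23 (chr8:94178839-94179088, plus strand).
Mt2: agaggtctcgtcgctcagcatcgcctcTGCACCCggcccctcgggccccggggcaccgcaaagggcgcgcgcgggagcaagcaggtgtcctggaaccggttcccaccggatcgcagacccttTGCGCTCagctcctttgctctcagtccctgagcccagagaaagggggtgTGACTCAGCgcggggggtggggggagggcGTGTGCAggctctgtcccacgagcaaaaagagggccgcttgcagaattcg
Mt1: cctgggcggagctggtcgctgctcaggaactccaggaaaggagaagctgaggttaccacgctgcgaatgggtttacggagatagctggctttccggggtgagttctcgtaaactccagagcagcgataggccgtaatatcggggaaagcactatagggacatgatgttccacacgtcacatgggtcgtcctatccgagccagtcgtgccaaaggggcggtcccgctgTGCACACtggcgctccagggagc
At least 4 metal response elements of either form are in 0.517% of all windows. The antioxidant core of Mt2 contains the AP-1 site, TGAGTCA read on the reverse strand, which 5.20% of all windows hold.

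Among 16 genes of zinc and copper handling, 15 were detected in each comparison. KO over WT gave 0 called higher and 0 lower under vehicle, where 11.1% of all detected genes were higher and 6.17% lower. Under lipid A it gave 1 higher and 2 lower, against 10.6% and 10.3%. The medians were -0.099 and 0.11. Slc39a14, an importer of zinc and iron known to be induced in inflammation, gave 218 with vehicle and 818 with lipid A in WT, and 262 and 2310.2 in KO, the highest array being that of Mt2. A further probe set at or above the median on all arrays gave 87.6, 139.8, 131 and 238. Slc30a1, a zinc exporter that is itself a known Mtf1 target, went the other way from the metallothioneins, with 9626 with vehicle and 6609 with lipid A in WT, and 7109 and 2797 in KO. It was 2.36-fold lower in KO under lipid A, and -1.35 on the log2 scale by a further probe set. Mtf1 gave between 465 and 557 on the 4 arrays by its brightest probe set. Slc11a1, the phagosomal metal transporter also called Nramp1, was 2.26-fold lower in KO under lipid A (26771 against 11836.5).

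The response to lipid A was compared between the genotypes as the log2 response of KO minus that of WT. This value was 2.06 for Slc7a11 by its brightest probe set and 2.55 by the other, 1.02 for Mt2 and 0.94 for Mt1. It was -0.86 for Gclc, though 0.077 by its other probe set. The remaining 5 genes lay between -0.29 and 0.29 by their brightest probe sets, while further ones gave 0.42 and 0.53 for Txnrd1, 0.35 for Srxn1 and 0.31 for Gclm. The median of the 9 genes was 0.097, and that of all genes -0.13. The pooled SD of this value between probe sets of a gene was 0.50. With centred arrays, which move all genes alike, the median of the 9 genes was 0.45, and with quantile normalization -0.064. Centring also turned Nqo1, Gclm and Srxn1 from below 0 to 0.059, 0.22 and 0.14, and gave 2.41 for Slc7a11, 1.37 for Mt2 and 1.29 for Mt1. For Slc7a11 the larger response in KO came with a KO vehicle signal below that of WT, and its 2 lipid A arrays were 6554 in WT and 6191 in KO. For Mt2 it came with a KO lipid A signal above the other arrays.

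Among the 9 regulators of Nrf2, KO over WT ranged from -0.27 to 0.44 on the log2 scale under vehicle by the brightest probe sets, and from -0.65 to 1.32 under lipid A. Nfe2l2 gave 13592 with vehicle and 16785 with lipid A in WT, and 11657 and 16682 in KO by its brightest probe set. A dimmer probe set of Nfe2l2 gave 170, 317, 180 and 475 in the same order, or 0.59 on the log2 scale for KO over WT under lipid A. Keap1 gave 1429, 2092, 1529 and 1463, and Bach1 gave 5739, 4685, 6009 and 3232 in the same order. Under lipid A, KO over WT was thus -0.52 for Keap1 and -0.54 for Bach1 on the log2 scale, short of 2-fold but beyond the spread between probe sets of 0.41. A further probe set of Bach1 was lower in KO under vehicle as well, at -0.56. Mafk, another small Maf protein, gave 1974 in WT lipid A against 1261 in KO lipid A, or -0.65. Of 9 regulators, all measured, 0 were called in KO over WT under vehicle, where 11.1% of all detected genes were higher and 6.17% lower. Under lipid A 1 was called higher and 0 lower, against 10.6% and 10.3%. That gene was Maff, a small Maf partner, with 285 with vehicle and 1501 with lipid A in WT, and 236 and 3734 in KO. Lipid A over vehicle gave 3 called higher in WT, Maff, Mafk and Sqstm1, where 11.8% of all detected genes were higher. It gave 2 in KO, Maff and Sqstm1, against 11.2%. Sqstm1, which encodes p62, an autophagy receptor that binds Keap1, was 2.46-fold higher in WT and 3.89-fold in KO.

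Other known Nrf2 targets were split between the genotypes under vehicle, with 7 of 14 lower in KO, and 9 of 14 were lower in KO under lipid A. Of 14, 13 were detected. Under vehicle 1 was called higher and 1 lower in KO (11.1% and 6.17% of all detected genes), with a median of -0.26. Under lipid A 2 were called higher and 3 lower (10.6% and 10.3%), with a median of -0.55. The lower ones were Osgin1, Cbr3 and Abcc4, and the higher ones were Ephx1 and Trim16. The call of Trim16 rested on a WT signal of 81.8, near the array median of 74.8, and a further probe set ran the other way, with 89.6 in WT and background in KO. Cbr3, a carbonyl reductase, gave 1699 in WT against 746 in KO under lipid A. Ephx1, microsomal epoxide hydrolase, was 2.87-fold higher in KO under vehicle and 2.23-fold under lipid A.

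Of the thioredoxin and peroxiredoxin genes 9 of 11 were measured, and 0 were called in either comparison of genotypes. The same held for the 5 of 6 measured genes of NADPH supply. Of the heme and iron genes 10 of 11 were measured, with 0 called higher and 1 lower in KO under vehicle, and 0 higher and 3 lower under lipid A. For each of these lists the shares over all detected genes were 11.1% higher and 6.17% lower under vehicle, and 10.6% and 10.3% under lipid A. Tfrc, the transferrin receptor that takes up iron, gave 17795 with vehicle and 14744 with lipid A in WT, and 2962 and 2691 in KO, so both KO arrays were far below both WT arrays. By a further probe set at or above the median on all arrays it gave 680.1, 489, 148 and 187. Fth1, the ferritin heavy chain, lay between 103593 and 126693, and Blvrb, a biliverdin reductase that acts after heme oxygenase, gave 11772 in WT vehicle and 8227 in KO vehicle.

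**Figure D4:**
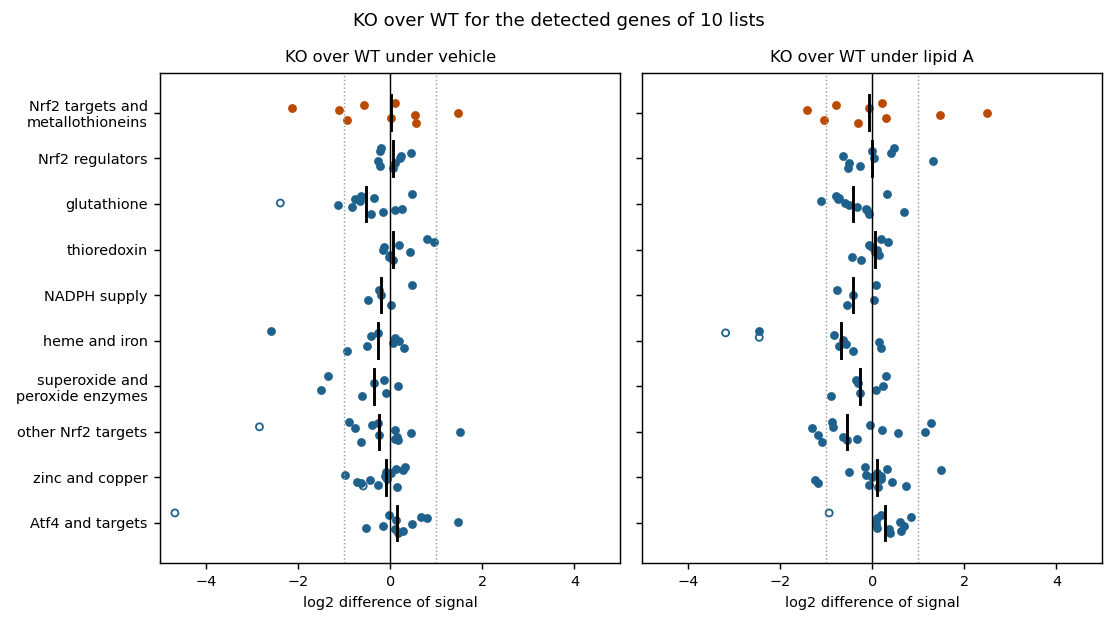
KO over WT on the log2 scale (x), under vehicle and under lipid A, for the detected genes of 10 lists (y), with the black bar at the median of each list. Open points have 1 of the 2 signals below the array median, dotted lines mark 2-fold, and the list of Nrf2 targets and metallothioneins spreads from -2.14 to 1.48 under vehicle around a median of 0.018.

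Genes with the most like pattern over the 4 arrays were taken from those at or above the median on every array with a range of over 1 on the log2 scale, by the root mean square difference of the log2 signals after each gene's mean was taken off. For the mean of Mt1 and Mt2 they were Dab2 at 0.060, Gfpt2 at 0.10, Ubtd2 at 0.15, and AI504432 and Dennd4a at 0.18 each, out of 2694 genes. Dab2 gave 353 with vehicle and 375 with lipid A in WT, and 636 and 1556 in KO. For Slc7a11, added after its values were seen, they were Rassf4 at 0.17, Ddhd1 at 0.27, Cxcl16 at 0.28, Pilrb1 at 0.29 and Ikbke at 0.31. For Hmox1 the nearest were Srgn, Pkmyt1, Phtf2, Eml4 and Mybbp1a, at 0.23 to 0.25, but each of them ranged more widely than Hmox1 itself. With 4 arrays such likeness is a description.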

How the data were processed

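Total RNA of WT and KO peritoneal macrophages was labelled with biotin and hybridised to 4 Affymetrix mouse genome arrays, 1 for each genotype and treatment. The authors deposited the intensity of each probe set as a linear signal, with the software not given in the sources used here. With 2% of the values trimmed at each end, each array had a mean of 500.004, so whole arrays were inferred to have been scaled by the authors. No detection calls were used.

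Of 45101 probe sets, 64 controls were left out. In the platform annotation 34945 probe sets have 1 gene symbol, 932 several and 9160 none. Signals were log2-transformed. A gene was read from its brightest probe set by mean log2 signal, and all probe sets of the members were kept beside it. A gene was detected in a comparison when its higher signal reached the array median, and called when it also differed over 2-fold. No p-value was computed, and the number of arrays limits the precision. The step that makes the calls was tested on simulated data. Folds of dim signals are imprecise.

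The members, the gene lists, the markers and the rule for named genes (all members, Nfe2l2, Keap1 and Bach1, up to 4 called genes of each list in a comparison, and the 5 genes most like a member) were chosen with earlier results of these data known. Genes outside this rule, such as Atf4, Slc3a2, Mtf1, Fth1 and Blvrb, were named for their role after values were seen. Alternatives changed the scaling, the filter on dim signals, the step from probe sets to genes and the fold threshold. Promoter windows came from RefSeq (GRCm38.p6). Python 3.11.15 with numpy 2.4.6, pandas 2.3.3, SciPy 1.17.1 and matplotlib 3.10.9 was used.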

Additional observations from a re-analysis of the deposited data

Results flagged for a closer look

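For 2 genes the same contrast ran in opposite directions in the groups set side by side, by the brightest probe set. With 1 array a condition these differences were not tested. Mt1 was lower with lipid A in WT, by -0.60 on the log2 scale, and higher in KO, by 0.34. The first value exceeds the spread of 0.39 between probe sets of a gene in that comparison and the second is below its spread of 0.46.

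Gclc, the catalytic subunit of glutamate-cysteine ligase, was higher with lipid A in WT, by 0.25, and lower in KO, by -0.61. In KO over WT it was higher under vehicle, by 0.56, and lower under lipid A, by -0.30. The further probe set of Gclc was below 0 in all 4 comparisons, at -0.34, -0.27, -0.31 and -0.24, so that the opposite directions of Gclc were seen by 1 of its 2 probe sets.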

How the results depend on the processing

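No paired analysis was possible because each group has 1 array. Over 5 alternatives, 225 log2 differences of members were compared with the main ones. Of these, 15 moved by more than the spread between probe sets and 20 took the other sign, 0 of the latter among values over 2-fold. Of the 15, 9 came with the median over probe sets and 6 without _x_at and _s_at. Signals raised to the median could not change their 45 values. Centring shifts all genes alike, by at most 0.37, which is below the spread. Hmox1, Nqo1 and Mt2, with 1 probe set each, could not move with the step from probe sets to genes. With quantile normalization 2 genes in place of 1 were called higher with lipid A in WT, Mt2 being added, and 2 in place of 3 in KO, where Txnrd1 lost its call at 0.84. With the median over the probe sets of a gene, lipid A in WT gave 0 called higher and 1 lower in place of 1 and 0. The gene called lower was Mt1, at -1.595 on the log2 scale, because the median takes in its probe set at background. With this median KO over WT gave 4 lower under vehicle in place of 2, and 1 lower under lipid A in place of 2. Shares over all genes were not computed with quantile normalization, with centred arrays, with this median or without _x_at and _s_at. Without probe sets ending in _x_at or _s_at, 1 gene in place of 2 was called higher in KO under lipid A, since Mt1 was then read from a probe set at background. Over 3-fold, lipid A in KO gave 2 higher (7.23%), 0 were higher with lipid A in WT (7.12% of detected genes), KO over WT gave 0 higher and 1 lower under vehicle (6.28% and 3.65%), and 1 higher, Mt2, and 0 lower under lipid A (6.35% and 5.73%). Over 1.5-fold, lipid A gave 3 higher and 1 lower in WT (18.2% and 18.9%) and 1 lower in KO (29.7%). With every probe set counted on its own, an alternative chosen after seeing the data, 5 of 18 were higher with lipid A in KO (12.4% of all detected probe sets), 6 were lower in KO under vehicle (7.46%), and the median under vehicle was -0.52. With arrays centred on their medians, 3 in place of 2 were called lower in KO under vehicle, Gclm being added at -1.30, and the median under vehicle turned from 0.018 to -0.35. No filter, both arrays at or above the median and signals raised to the median left every count of called members as it was. They could not do otherwise, because all 9 genes were at or above the median on all 4 arrays.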

Other observations

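Among genes that make and remove superoxide and peroxide, 8 of 9 were measured and 7 detected. In KO over WT under vehicle 0 were called higher and 2 lower, where 11.1% of all detected genes were higher and 6.17% lower. The median of the 7 was -0.37, and Cyba, Sod1 and Ncf1 lay between -0.14 and 0.17. The called genes were Sod2, the mitochondrial superoxide dismutase, and Cybb, the catalytic subunit of the phagocyte NADPH oxidase. Sod2 gave 16042.5 with vehicle and 33756 with lipid A in WT, and 6230.5 and 41453 in KO. Cybb gave 46571, 60888, 16422 and 64747 in the same order, and its further probe sets gave -2.50 and -2.03 on the log2 scale for KO over WT under vehicle. As with Slc7a11, KO vehicle was the lowest array for both genes. In KO over WT under lipid A 0 genes of this list were called, against 10.6% higher and 10.3% lower over all detected genes.

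Idh1, the cytosolic isocitrate dehydrogenase that supplies NADPH, was lower with lipid A in both genotypes, with 10029.1 with vehicle and 3255 with lipid A in WT, and 10084 and 2223 in KO, or 3.08-fold and 4.54-fold lower. A further probe set gave -2.06 and -2.36 on the log2 scale.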
